A study of Xenopus laevis with 2 samples.

Results

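The mRNAs of tpt1, lmnb1 and lmnb2 were examined in the axons of Xenopus laevis retinal ganglion cells (RGCs), the neurons that connect the eye to the brain. These 3 genes were chosen by name, with earlier results of these data known, because Tctp, the protein of tpt1, and lamin B2 are reported to be made inside Xenopus retinal axons. All rows of the data whose gene name holds one of these symbols, with or without the ending L or S, were kept. This gave 6 gene names on 7 rows, out of 49349 gene names on 51037 rows. L and S at the end of a name mark the homeologs, the copies of a gene on the long and short chromosomes of the allotetraploid frog genome, and each of the 3 genes is listed under both endings.

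A single group was sequenced, as 2 replicate libraries, with no treatment named in the labels, so there is no contrast between conditions. For each library, 500 whole eyes of stage 33/34 to 37/38 embryos were cultured for 48 hours on a filter with 1 µm pores, which lets axons through, and the cell bodies on the upper side were removed before the axonal RNA was extracted. Each library thus pools many animals, and no library of eyes, cell bodies or whole embryos was analysed here. The values are FPKM, fragment numbers scaled by transcript length and library size, and levels are set side by side between genes. The cDNA was amplified with a method made for single cells. Whether this changed the levels of long and short mRNAs to an unlike extent was not tested. In libraries that pool many animals, fewer axons that carry an mRNA and less of it per axon cannot be told apart.

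Tctp, the translationally controlled tumor protein, is a small, conserved protein that takes part in growth, cell survival and the stability of mitochondria. Its mRNA is a classical member of the 5′ terminal oligopyrimidine (5′ TOP) class, whose translation the mTOR pathway controls together with that of ribosomal protein (RP) mRNAs. Lamins B1 and B2 are intermediate filament proteins of the nuclear lamina, the meshwork under the inner nuclear membrane, and are tethered to that membrane by a farnesyl group. Axons hold no nucleus, and in Xenopus retinal axons lamin B2 has been described outside the nucleus, at mitochondria, where it serves axon maintenance.

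The values listed for the 3 genes lay far apart. The row of tpt1.L had one of the highest values in the axon libraries. Both homeologs of lmnb1 were listed at 0 in both libraries, and lmnb2 was listed just above 0 under its S homeolog. FPKM over 1 in both replicates was taken here as the limit of detection. The study's methods use this limit to choose genes for a gene ontology analysis. By this limit, 1 of the 6 gene names was detected, tpt1.L. Over all 49349 gene names this share was 4.39%, and over the 20322 names that carry a symbol it was 8.55%. Counted by gene, with any homeolog over the limit, 1 of 3 passed, against 10.8% of 14132 genes with a symbol. At a limit of 0.1 FPKM, which 5.3% of all names passed, lmnb2.S was counted too, and at 10 FPKM, which 2.65% passed, tpt1.L was again the single member. With so few members these shares describe the members and are not read against the background.

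**Figure D1:**
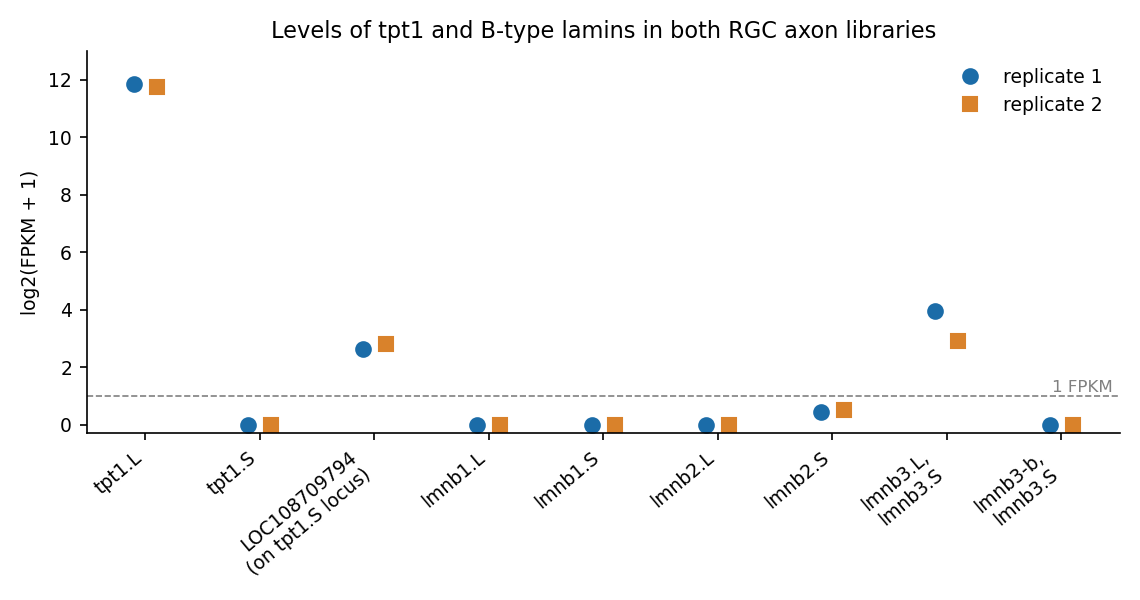
Level of each gene name, as log2(FPKM + 1) on a linear axis, in replicate 1 (circles) and replicate 2 (squares), with a dashed line at 1 FPKM. The tpt1.L points lie far above every lamin, lmnb2.S lies under the line in both libraries, and lmnb1.L, lmnb1.S, lmnb2.L and tpt1.S lie at 0; lmnb3 and the gene model on the tpt1.S locus are shown for comparison.

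The row of tpt1.L, which also names the gene model LOC108708523, lies at 134450599 to 134456062 of chromosome 2L (v9.2 assembly, as are all positions given), a span of 5464 bp that no other gene name shares. It had 3637 (replicate 1) and 3458 FPKM (replicate 2), a mean of 3547 ± 126 FPKM (SD, n = 2). The libraries were nearly equal. The difference, replicate 2 minus replicate 1, was -0.07 on the log2(FPKM + 1) scale. Over the 2168 gene names with FPKM over 1 in both libraries the median absolute difference was 0.98, and 3.83% of them differed by less than tpt1.L. Among the 130 gene names with a mean over 1000 FPKM, where the median difference was 0.40, 10.8% differed by less.

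By level, tpt1.L ranked 30th of the 3148 gene names above 0 in replicate 1 and 43rd of 2873 in replicate 2, and 37th by the mean of both. It took 0.586% of all summed FPKM in replicate 1 and 0.477% in replicate 2. Its mean was higher than that of 98.9% of the 3336 gene names above 0 in either library. Of the 36 gene names with a higher mean, 13 carry an RP symbol and 23 do not. Seen from the RPs, tpt1.L stood near their upper end: of 119 gene names with an RP symbol, whose median of the mean level was 635 FPKM, 13 lay above it by the mean and 7 in both libraries.

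**Figure D2:**
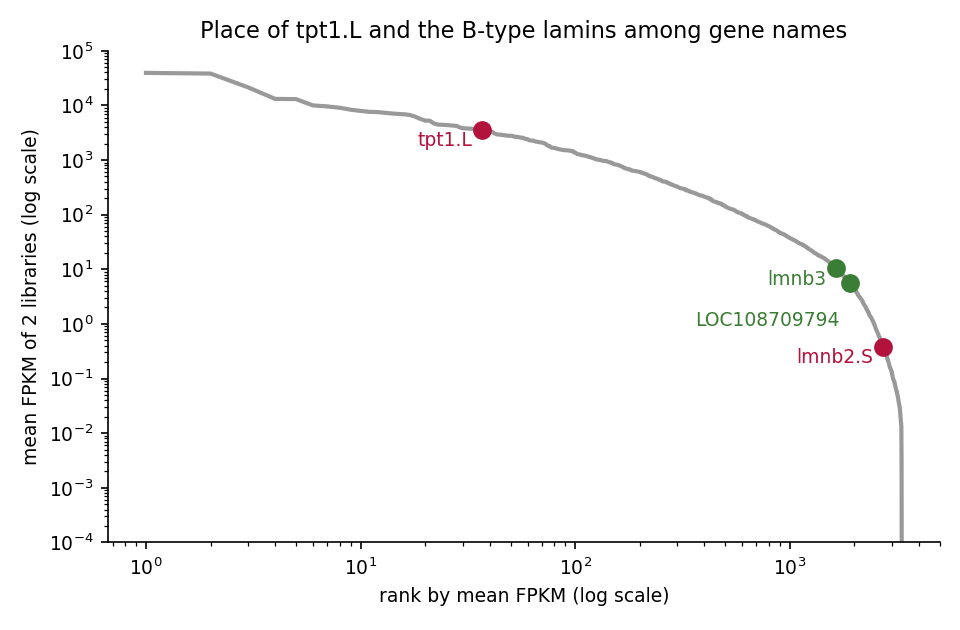
Mean FPKM of 2 libraries against rank for all gene names above 0, on log axes. tpt1.L holds rank 37 near the left end of the curve, lmnb3 and LOC108709794 lie at ranks 1651 and 1904, and lmnb2.S lies at rank 2725, where the curve falls steeply.

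The 4 gene names with a symbol that were closest to tpt1.L in level, by Euclidean distance in log2(FPKM + 1) over the 2 libraries, were rab7a.S, rps9, rps10 and rpl26.S. The nearest, rab7a.S, codes for a small GTPase of late endosomes and had 3691 (replicate 1) and 3690 FPKM (replicate 2), a distance of 0.10. The others code for RPs. Of these, rps9, a protein of the small subunit, had 3455 (replicate 1) and 3619 FPKM (replicate 2). The most distant of the 4, rpl26.S of the large subunit, had 3114 and 3040 FPKM, a distance of 0.29. Likeness over 2 libraries of one condition is a likeness of level alone.

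The S homeolog of tpt1 is listed at 0 in both libraries. It lies on chromosome 2S from position 116379732 to 116383476. The same start and end are given to a second name, the gene model LOC108709794, which had 5.13 (replicate 1) and 6.02 FPKM (replicate 2), so signal was assigned to the locus. In the gene table of a later assembly, Xenopus_laevis_v10.1, LOC108709794 is a long noncoding RNA that follows kctd4.S, and LOC108708523, the model on the tpt1.L row, is a protein-coding gene that follows kctd4.L. LOC108709794 was picked out after its values were seen. The symbol tpt1.S was not found in that table. With the value of LOC108709794 added to tpt1.L and tpt1.S, the mean of both libraries was 3553 FPKM. As the model is listed as noncoding, this is not a level of tpt1 mRNA.

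An entry of 0 beside another name on the same locus was common in these files. Of the 451 loci that carry more than one gene name and at least one name over 1 FPKM in both libraries, 388 (86.0%) list all their other names at 0. Over all 49349 gene names, 93.2% are at 0 in both libraries, and over 14132 genes with a symbol 84.2% are. These shares count names or genes and the 86.0% counts loci, so whether shared loci stand apart was not tested. A 0 in such a file can be a failed estimate, and near-identical homeologs can share reads. The split of tpt1 between L and S is therefore uncertain, and no ratio of the homeologs is given. Of 553 homeolog pairs with one copy over 10 FPKM in both libraries, 267 (48.3%) list the other copy at 0 in both. This share is under the 93.2% of all gene names, but those were not chosen for having a copy over 10 FPKM. A second copy at 0 was less common at higher levels. Among the 48 pairs with one copy over 1000 FPKM, the other copy was at 0 in 7 (14.6%), of which 6, tpt1 among them, had the S copy at 0 and 1 the L copy.

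Lamin B2 was listed at the lower edge of the data. The L homeolog of lmnb2 lies on chromosome 1L from position 88477199 to 88510381, alone on its locus, and is at 0 in both libraries. The S homeolog is listed on 2 rows with the same position, chromosome 1S from 77642773 to 77774793. The higher row had 0.342 (replicate 1) and 0.423 FPKM (replicate 2). The lower row held 0.000160 (replicate 1) and 0.000159 FPKM (replicate 2) and adds nothing to the sum. The sum over all lmnb2 rows was 0.382 ± 0.057 FPKM (SD, n = 2), under the limit of 1 FPKM in both libraries. By this value lmnb2.S ranked 2615th of 3148 gene names above 0 in replicate 1 and 2660th of 2873 in replicate 2, and 18.3% of the gene names above 0 in either library had a lower mean.

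The small difference between the libraries for lmnb2.S, 0.08 on the log2(FPKM + 1) scale, does not mean that its value is precise. At a few reads per gene, FPKM moves in steps of one read, and so the ratio between libraries falls on a small set of values. In 621 gene names both values were above 0 and under 5 FPKM. The log2 ratio, replicate 2 over replicate 1, was 1.89 (± 0.01) in 44 of these, which was taken as the step of 1 read in each library. It was 0.89 in another 29 and 0.31 in 20, with lmnb2.S counted among the 20. These were taken as the steps of 2 and of 3 reads in replicate 1 for each read in replicate 2. The median window of this width held 1 gene name. Other ratios, such as 2.89 and -0.11, recurred too and were not counted. If the first step is read rightly, the FPKM value of 1 read was 3.71 times higher in replicate 2, then the shallower library. The log2 ratio of lmnb2.S was 0.31, on the step of 3 reads in replicate 1 and 1 read in replicate 2. If that reading holds, 1 read was worth 0.114 (replicate 1) and 0.423 FPKM (replicate 2) for lmnb2.S. The same ratio would arise from any multiple of these read numbers, and the total depth is unknown.

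**Figure D3:**
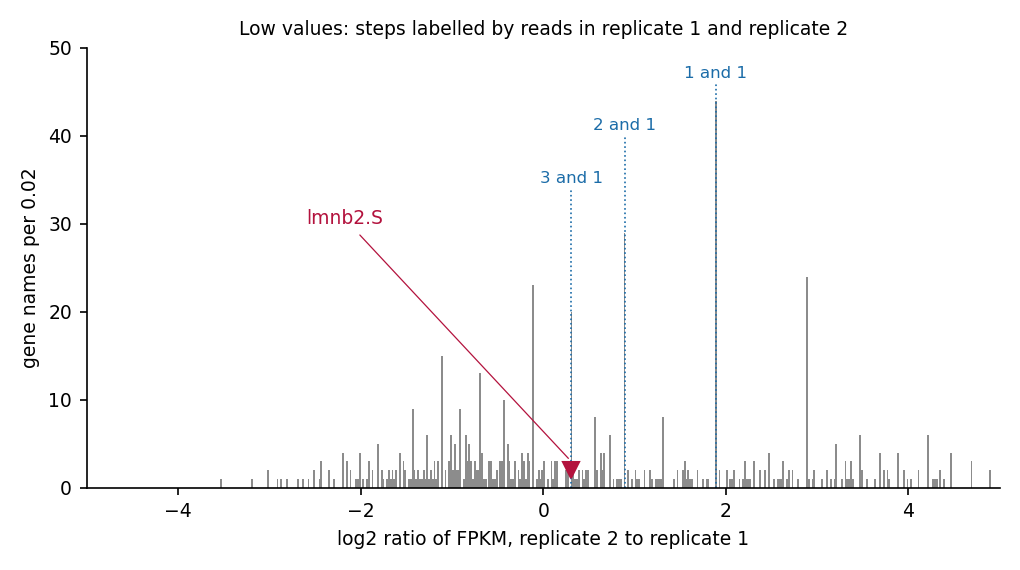
Number of gene names per 0.02 of the log2 ratio of FPKM, replicate 2 to replicate 1, for the 621 gene names above 0 and below 5 FPKM in both libraries. Dotted lines mark the ratios taken as 1 and 1, 2 and 1, and 3 and 1 reads in replicates 1 and 2. They have 44, 29 and 20 gene names within 0.01, and the triangle marks lmnb2.S at 0.31.

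The locus of lmnb2.S spans 132021 bp and carries 6 gene names in the files. The other names are rpl36.S, an RP of the large subunit, timm13.S, a chaperone of mitochondrial protein import, tmprss9.S and 2 numbered gene models, and all of them are listed at 0 in both libraries. In the v10.1 table, lmnb2.S and lmnb2.L each lie between timm13 and rpl36 of their own chromosome. On the L chromosome, timm13.L was at 0 in both libraries and rpl36.L had 4.76 FPKM in replicate 2 alone. Whether reads of a neighbour entered the lmnb2.S value was not tested.

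Lamin B1 was listed at 0 throughout. Its L homeolog, on chromosome 1L from position 169469954 to 169491631, and its S homeolog, on chromosome 1S from position 140413835 to 140434828, are each alone on their locus, and both had 0 in both libraries. This is the common entry in these files. Of 14132 genes with a symbol, 84.2% are listed at 0 in both libraries under all of their names, and 4.95%, like lmnb2, have a value above 0 but no name over 1 FPKM in both. Of 5738 L and S pairs, both copies were at 0 in 77.4%. Several mRNAs of broad use are also at 0. Among them are hspa5, the main chaperone of the endoplasmic reticulum, and cox4i1, a subunit of cytochrome c oxidase. A listing at 0 does not by itself show that an mRNA was absent from the axons. Whether lmnb1 mRNA or these mRNAs were absent or missed was not tested.

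The span of the locus differs between the members, 5464 bp for tpt1.L and 20994 to 33183 bp for lmnb1 and lmnb2.L. Over gene names with a symbol that are alone on one locus, the share detected changed little with span. It was 8.32% of 3895 names under 10 kb, 9.64% of 3808 names from 10 to 20 kb, 9.06% of 3851 names from 20 to 40 kb and 7.87% of 3852 longer ones. Levels did change: the median of the detected names was 91.4 FPKM under 10 kb and 26.2 FPKM from 20 to 40 kb. Transcript lengths were not used here, and the part of length in the gap between tpt1 and the lamins was not tested. These span classes were chosen after the values were seen.

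A B-type lamin outside the chosen genes was detected. This was lmnb3, which codes for lamin LIII, the main lamin of Xenopus oocytes and early embryos. A row that names both lmnb3.L and lmnb3.S, on chromosome 3L from position 95825579 to 95845539, had 14.4 (replicate 1) and 6.49 FPKM (replicate 2), a mean of 10.4 ± 5.59 FPKM (SD, n = 2). The second lmnb3 row, on chromosome 3S, is at 0 in both libraries. The lmnb3 level was thus 42.1 times that of lmnb2 in replicate 1 and 15.3 times in replicate 2. The lmnb2 values, 0.342 and 0.423 FPKM, may rest on as few as 3 reads and 1 read, so these ratios are not precise. The level of tpt1 was 253 (replicate 1) and 533 times (replicate 2) that of lmnb3. The libraries differed more for lmnb3 than for tpt1.L or lmnb2.S, with a difference of -1.04 on the log2(FPKM + 1) scale, and 53.6% of the names over 1 FPKM in both libraries differed by less than that. The A-type lamin lmna, listed under its L homeolog on chromosome 8L, was at 0 in both libraries.

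**Figure D4:**
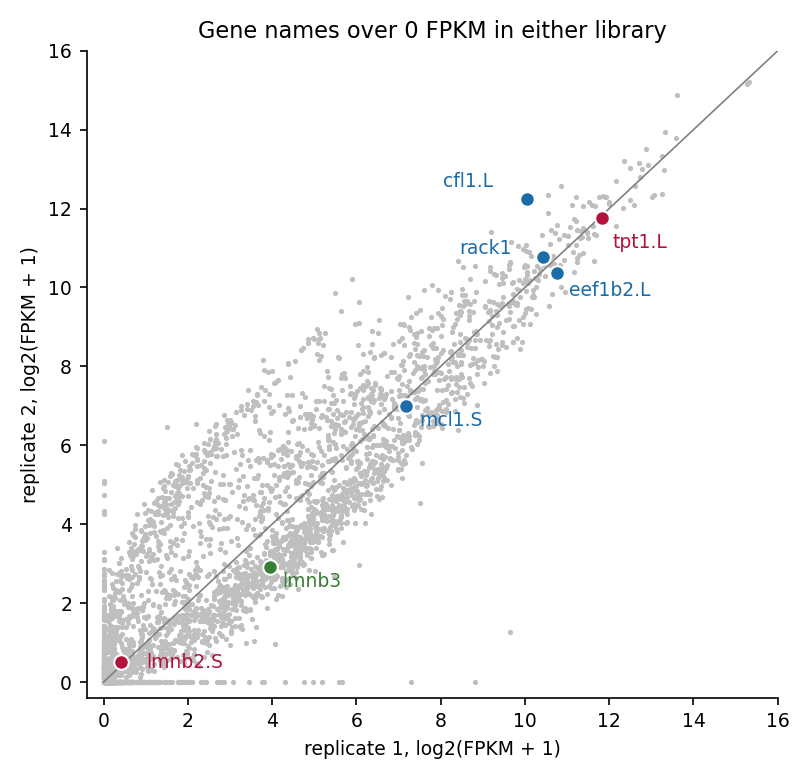
Replicate 2 against replicate 1, as log2(FPKM + 1), for all gene names above 0 FPKM in either library (gray), with the line of equal values; members are red, lmnb3 is green and genes of the lists are blue. tpt1.L and mcl1.S lie close to the line, lmnb3 lies below it with 14.4 and 6.49 FPKM, and lmnb2.S lies near the origin.

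The other genes of the nuclear lamina were next described. Of 14 genes of the lamina, the inner nuclear membrane and their partners, 12 are listed, and 2 had FPKM over 1 in both libraries (16.7%, against 10.8% of all genes with a symbol). Of the 12, 66.7% are at 0 in both libraries, against 84.2% of all genes with a symbol. The detected genes were the lamin lmnb3 itself and tmpo, which codes for the lamina-associated polypeptide LAP2, with 45.8 (replicate 1) and 119 FPKM (replicate 2). The chromatin-binding factor banf1 had 7.65 FPKM in replicate 2 and was at 0 in the other library. The lamin B receptor lbr, emerin (emd), lemd3, sun1, sun2, syne2 and tor1a are at 0 in both libraries, as is lmna.

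Of 5 genes for enzymes that farnesylate lamins or process their farnesylated tail, 1 passed the limit (20%, against 10.8% of all genes with a symbol) and 3 are at 0 (60%, against 84.2%). The gene that passed was zmpste24, the metalloprotease that matures prelamin A and is not the protease of B-type lamins, with 41.9 (replicate 1) and 25.7 FPKM (replicate 2). The farnesyltransferase subunit fntb lay on both sides of the limit, with 1.23 and 0.620 FPKM. The other subunit fnta, the protease rce1, which cuts B-type lamins, and the methyltransferase icmt are listed at 0.

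For tpt1, mRNAs of the same class and of reported partners were described in the same way. Of 16 mRNAs outside the RPs that are known to have a 5′ TOP, all are listed and 9 had FPKM over 1 in both libraries (56.2%, against 10.8% of all genes with a symbol), while 4 are at 0. Numbered copies of a gene, such as eef2.1 and naca.2, were counted under its symbol in the lists. The share over all genes with a symbol kept each numbered copy as a gene of its own, so the shares are not counted quite alike. The genes eef2 and naca were matched in this way after the values were seen, and both are among the 9 that passed. The median level of the 16, homeologs summed, was 25.2 FPKM, and tpt1 was above each of them. The highest were rack1, listed as gnb2l1, a scaffold protein of the small ribosomal subunit, and eef1b2, a subunit of the exchange factor of elongation factor eEF1A. They had 1386 and 1733 FPKM and 1730 and 1326 FPKM in replicates 1 and 2. Far below, eef1a1 had 60.3 (replicate 1) and 146 FPKM (replicate 2). The mRNA of btf3 differed widely between the libraries, with 1.82 and 87.6 FPKM. The nucleolar chaperone npm1, eef1d, eif3f and eif4b are at 0 in both libraries.

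Of 9 genes whose proteins are reported partners of Tctp, all listed, 4 had FPKM over 1 in both libraries (44.4%, against 10.8% of all genes with a symbol) and another 4 are at 0 in both. The median level of the 9 was 0.0252 FPKM. Of the detected genes, eef1b2 and eef1a1 are also on the 5′ TOP list. The S homeolog of mcl1, a member of the Bcl-2 family that protects mitochondria and cells from death, had 144 (replicate 1) and 126 FPKM (replicate 2), and its L homeolog is at 0. Both homeologs of rheb, the small GTPase that activates mTOR complex 1, were present, rheb.S with 126 and 50.8 FPKM and rheb.L with 10.7 and 13.8 FPKM. The genes bcl2l1, plk1 and mdm2 are at 0 in both libraries, and chfr had 0.050 FPKM in replicate 1 and 0 in replicate 2.

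Other mRNAs that are reported to be translated in axons of vertebrate neurons were as unlike each other as tpt1 and lmnb2. Of 22 such genes, all are listed and 7 had FPKM over 1 in both libraries (31.8%, against 10.8% of all genes with a symbol), while 13 are at 0 in both (59.1%, against 84.2%). None reached the level of tpt1 by the mean with homeologs summed. The closest was cfl1, which codes for the actin-severing protein cofilin. Its L homeolog had 1064 (replicate 1) and 4848 FPKM (replicate 2), so it was under tpt1.L in one library and over it in the other. The importin kpnb1 had 131 and 262 FPKM, the chaperone calr, under calr.L, 135 and 259 FPKM, and rhoa.S 47.8 and 110 FPKM. The transcription factor creb1 was close to equal between the libraries, with 54.6 and 49.8 FPKM for its S and 27.9 and 26.8 FPKM for its L homeolog. At the lower end, actb.L had 2.59 and 14.4 FPKM and gap43.L 2.85 and 3.11 FPKM.

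**Figure D5:**
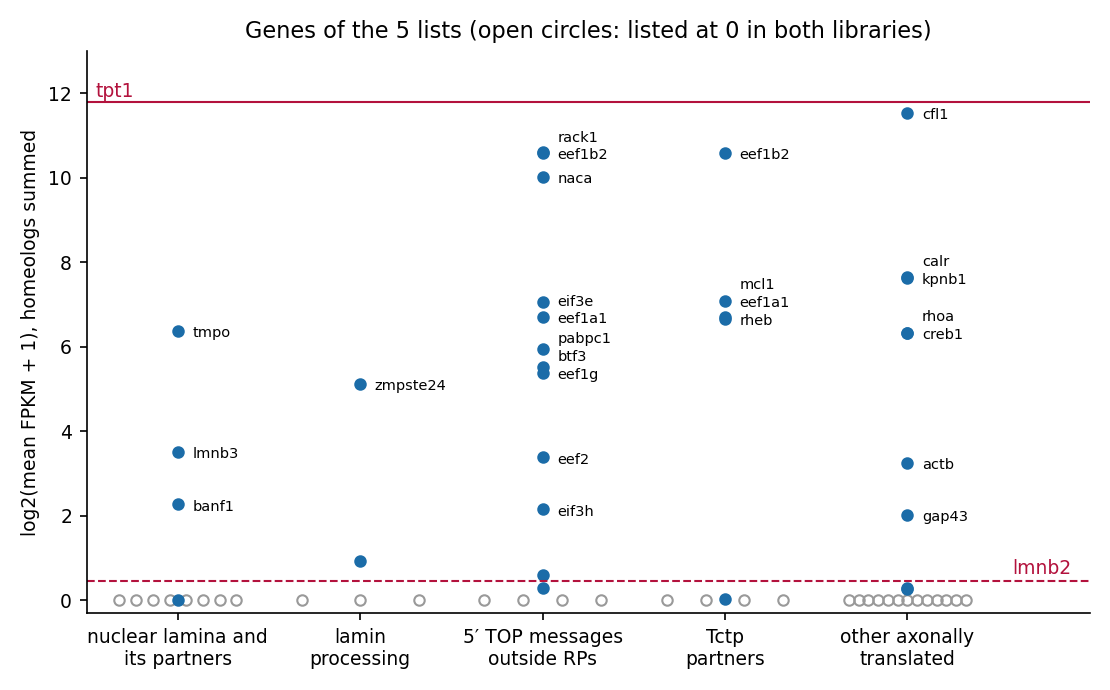
Mean level of each listed gene of the 5 lists, as log2(mean FPKM + 1) with homeologs summed; open circles are genes at 0 in both libraries. The solid line marks tpt1, which no listed gene reaches, and the dashed line marks lmnb2; the genes nearest to tpt1 are cfl1, rack1 and eef1b2.

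The lists also bear on what the libraries hold. Of 12 markers of RGCs and axons, gap43 and stmn2 passed the limit (16.7%, against 10.8% of all genes with a symbol) and the other 10 are at 0 in both libraries, among them tubb3, nefm, isl1 and pou4f1. Of 24 markers of 7 other cell sources, 5 passed it (20.8%), namely glul, rlbp1, dct, col1a1 and pcna, and 16 are at 0, among them rho of photoreceptors, rpe65 of pigment epithelium and cryaa of the lens. The summed level was 546 (replicate 1) and 841 FPKM (replicate 2) for the RGC and axon markers, nearly all of it from stmn2, a microtubule regulator of growing axons. Without stmn2 it was 3.05 and 3.11 FPKM. The sum of the other markers was 290 (replicate 1) and 233 FPKM (replicate 2), which sets no bound on the tpt1 mRNA that other cells could bring. Using RT-PCR and immunostaining for factors of the soma and nucleus, the study reports its axon sample as pure. Since tpt1 is used in most cells and lmnb3 in early embryonic ones, the part of mRNA from other cells in their values was not tested.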

How the data were processed

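RNA-seq files of 2 X. laevis RGC axon libraries were used as deposited. The authors amplified the cDNA by PCR, aligned the reads with HISAT2 2.1.0, against the v9.2 assembly of X. laevis, and estimated FPKM with Cufflinks 2.1.1, per library and without pooling. The annotation is not given in the sources used here. FPKM carry no counts, so depth is unknown beyond the relative value of a read, and PCR adds error that is not seen.

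Rows of one gene name were summed. log2(FPKM + 1) was used on log scales. With one condition no test was made, and all shares, ranks and distances are descriptions across genes, which are not independent replicates. By the study's methods, replicates came from separate batches of embryos. The step of low values was the log2 ratio with the most gene names within 0.01 at 1, 2 and 3 reads. On simulated data, ratios of 2.5, 3.7 and 6.0 were each recovered within 5% in 20 of 20 runs over 3336 genes. The simulation used whole reads and the same transcript length in both libraries. It thus checks the search for the step, and not how Cufflinks shares out reads or sets lengths.

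Named genes were the members, the 5 nearest names with a symbol, the fixed gene lists and the cell type markers. A few of the genes so chosen are not reported here by name. Members and lists were chosen with earlier results of these data known. Symbols of 5 of the 6 names were found in a RefSeq gene table of Xenopus_laevis_v10.1, used for names, gene types and neighbours, not coordinates. All lamin symbols of the members and LOC108708523, the model on the tpt1.L row, are in it. The planned description of protein and 5′ end features was not run. Python 3.11.15, numpy 2.4.6, pandas 2.3.3 and matplotlib 3.10.9 were used.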

Additional observations from a re-analysis of the deposited data

How the results depend on the processing

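No paired analysis was possible because there is a single group. The planned ratios of L to S homeologs are not given. With at least 1 copy of each member at 0, they would only restate the log2(FPKM + 1) of the other copy, and the split of tpt1 is uncertain. Of 55 alternative values, 43 moved by less than the spread between the libraries (or, for counts, stayed within 1.5 times) and 12 moved further. For differences between the libraries, the spread was the median over gene names above 1 FPKM in both. Part of the 43 could not have moved, so their number does not measure robustness. With 2 libraries, leaving out 1 always shifts a mean FPKM by less than their SD. Every lmnb1 value is 0, and where 1 copy is at 0 the highest homeolog equals the sum. With a limit of 0.1 FPKM, 2 of the 6 gene names passed, tpt1.L and lmnb2.S, and 2 genes of lamin processing; with a limit of 10 FPKM, 1 gene of the lamina list passed. With homeologs averaged, as the study did for RPs, tpt1 had 1774 FPKM and lmnb2 0.191 FPKM, by construction. The rank of lmnb2 was 2400 with homeologs summed, and 2615 to 2660 in single libraries. The rank of 2400 is among genes, not gene names, and the lmnb2 value was the same, since its L homeolog is at 0. The rank of tpt1 was 30 to 43 in single libraries. Genes of lamin processing numbered 1 to 2 in single libraries. The percentile of tpt1 was 98.3 among names over 1 FPKM in both libraries and 99.9 among all names, and that of lmnb2 among all names was 94.5, since most names are at 0. The value of tpt1 with LOC108709794 added was chosen after seeing the data. Total depth is unknown, so how far it limits lmnb1 and lmnb2 was not tested.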
